A study of Mus musculus with 6 samples.

Results

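The genes described here encode the enzymes of glycolysis, the pyruvate dehydrogenase step and the TCA cycle, compared between germinal centre B cells with a conditional Lsd1 deletion and cells without it. They were taken by name from a list of 40 enzyme genes, of which 39 have a row in the deposited count table of 15861 genes. Ldhb, the heart-type lactate dehydrogenase subunit gene, was not analysed here. Of the 39 genes, 37 passed the filter on low counts and were tested among 10926 genes, and the enolase genes Eno1 and Eno2 did not.

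Glycolysis splits glucose into pyruvate in the cytosol and yields a little ATP without oxygen. Lactate dehydrogenase turns pyruvate into lactate. In mitochondria the pyruvate dehydrogenase complex turns pyruvate into acetyl-CoA, which the TCA cycle oxidises to feed the respiratory chain. Germinal centre B cells divide rapidly in a poorly oxygenated niche, and which of these fuels and routes they use has been a matter of study.

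The KO group holds 3 mice of the genotype C57BL/6, Cgamma-cre+/- and Lsd1 f/f, and the WT group holds 3 C57BL/6 littermates that carry Lsd1 f/f and no Cre. Both groups thus carry the floxed alleles, and Cre alone was not analysed here, so effects of Cre and of the deletion cannot be told apart. Each library is polyadenylated RNA from the sorted B220+ GL7+ FAS+ cells of 1 mouse. The labels give no age, immunisation or batch, and name Cgamma-cre without saying in what share of the cells it acts.

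The KO libraries hold 12325300 to 14327654 counts and the WT libraries 3390805 to 5524852, so depth cannot be told apart from genotype. Kdm1a, the current name of Lsd1, was read at 81.9, 33.0 and 21.8 CPM in KO 1 to 3 and at 134, 85.2 and 92.6 CPM in WT 1 to 3, where CPM are counts scaled to a common library total after normalisation by the trimmed mean of M values (TMM). The library labelled KO 1 lay nearest to WT, and relative to library totals, at 87.5 CPM, it lay within the WT range of 78.9 to 135 CPM. The log2 fold change was -1.19 (SE 0.50, adjusted p = 0.393 in the edgeR quasi-likelihood test), and without the library labelled KO 1 it was -1.93 and passed (adjusted p = 0.0169). The B cell markers Cd79a, Cd79b, Ms4a1, Pax5 and Ebf1 and the germinal centre markers Bcl6, Fas, S1pr2, Gcsam and Rgs13 were read in all libraries, whereas Mef2b had at most 6 counts. Macrophage and dendritic cell markers, 15 genes in all, together took 923, 901 and 4680 CPM in KO and 1139, 2132 and 3947 CPM in WT relative to library totals, so they varied within both groups. Of 8 T cell markers 6 have a row in the table, and these took at most 17.5 CPM together in any library. Some lineage markers differed without passing. Cd79a and Cd79b, which encode the signalling chains of the B cell receptor, were lower in every KO library (log2 fold change -0.48 and -0.67). Ebf1 was higher in every KO library (log2 fold change 0.22), and Pax5 and Ms4a1, at 0.30 and -0.36, overlapped between the groups. Of the 6 B cell markers 4 lay below 0 and 2 above. Of the 6 tested germinal centre markers 6 lay below 0 and 0 above, at a median of -0.23, against 48.7% of all genes tested below 0. None of them passed, and all overlapped between the groups. Gcsam and Rgs13 stood at -0.60 (SE 0.27) and -0.96 (SE 0.81), and Bcl6 at -0.04 (SE 0.22). Among 6 plasma cell markers Irf4, a regulator of plasma cell formation, was read at 104.2, 49.3 and 85.5 CPM in KO, against 46.7, 30.5 and 34.3 CPM in WT, without overlap (log2 fold change 1.10, SE 0.29, adjusted p = 0.213 by edgeR). Prdm1, the regulator of plasma cell identity, stood at 2.30 (SE 0.77, adjusted p = 0.305 by edgeR), with overlap. Mzb1 and Sdc1 stood below 0, at -0.47 (SE 0.23) and -0.09 (SE 0.42), with overlap, and 4 of the 6 markers lay above 0. The 6 markers together took 2534, 2958 and 3242 CPM in KO and 2219, 3223 and 2784 CPM in WT. Of 8 proliferation markers 4 lay above 0, 4 lay below and 0 passed. Together they took 5260, 3544 and 3462 CPM in KO and 3217, 3711 and 3146 CPM in WT. Mki67 was read at 2152.5, 1055.5 and 1040.5 CPM in KO, against 886.6, 1255.7 and 1054.5 CPM in WT. Ccna2 was higher in every KO library (log2 fold change 0.18, SE 0.19). The part of any of these markers in the enzyme values was not tested. In bulk RNA, fewer cells of a type and less RNA per cell cannot be told apart.

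No enzyme gene of the set passed the test in KO against WT, and 25 of 37 had a log2 fold change below 0, which is 67.6% against 48.7% of all genes tested. Of the 37 tested genes 0 had an adjusted p under 0.05 by edgeR or by limma-voom, and 1, Idh2, did by DESeq2. Over all genes the share called was 0.0824% by edgeR, 0.0183% by limma-voom and 1.12% by DESeq2, which called 122 genes. At an unadjusted p under 0.05 there were 4 lower genes and 0 higher ones, against 5.50% and 7.10% of all genes and 12.6% in either direction. The log2 fold changes ran from -0.94 for Idh2 to 0.48 for Hk2, and their median was -0.16, against 0.01 over all genes tested. With a trend on the length and GC content of transcripts taken out, these medians were -0.01 and 0.02. For 30 of the 37 the 95% interval of the fold change lay within 2-fold in either direction.

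Counted by separation, 7 genes were lower in every KO library than in any WT library, namely Pfkl, Tpi1, Pgam1, Ldha, Aco1, Idh2 and Idh3g. That is 18.9% of the set, against 7.95% of all genes tested. A single gene, Pdk1, was higher in every KO library, which is 2.70% of the set against 10.0% of all genes, and in either direction it was 21.6% of the set against 18.0% of all genes. Without the library labelled KO 1 the counts were 8 lower and 2 higher, against 10.8% and 13% of all genes. Without KO 2 there were 14 lower genes (37.8%, against 17.6% of all) and without WT 2 there were 13 (35.1%, against 19.1%). The list was chosen with earlier results of these data known, and genes vary together across these libraries, so neither count is a test of the set.

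**Figure D1:**
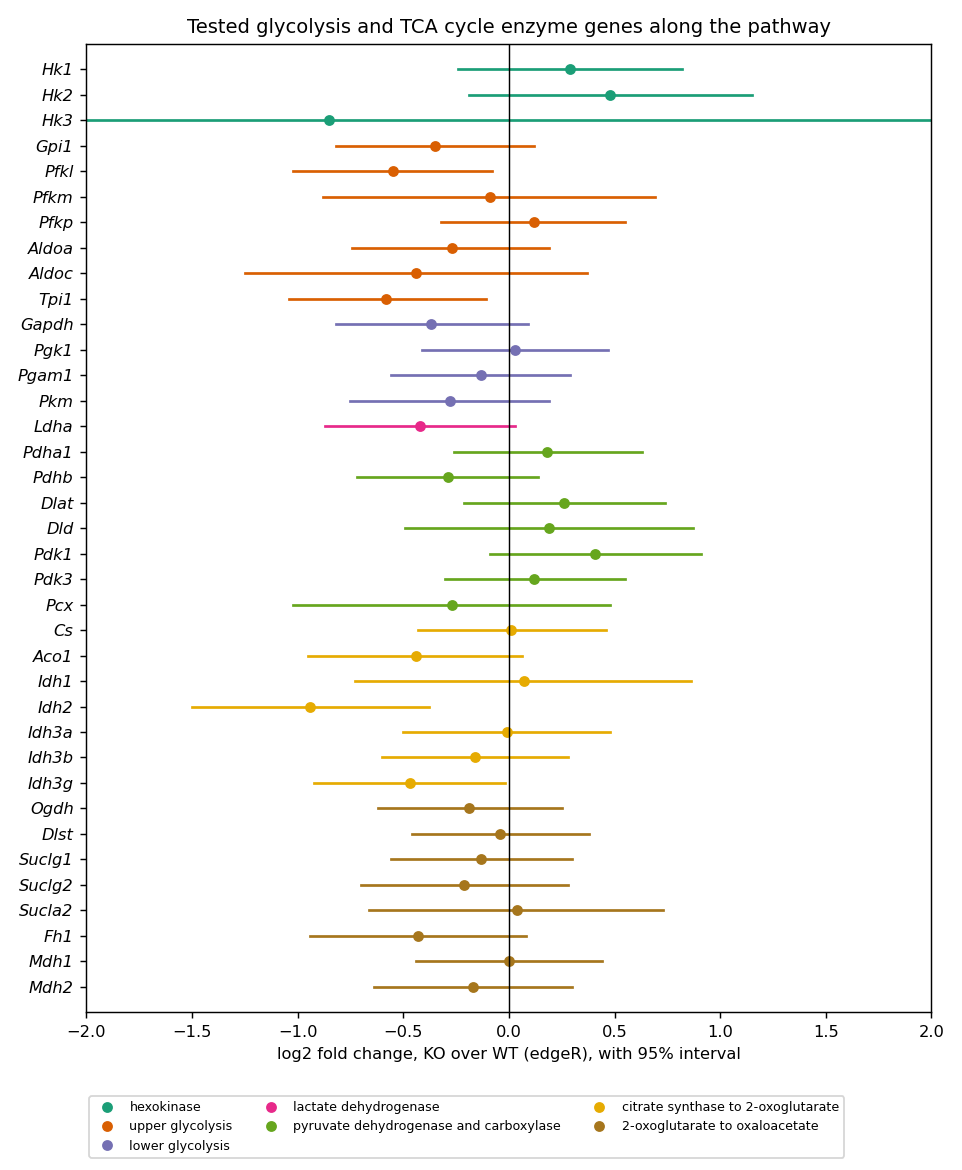
Log2 fold change of KO over WT (x axis, edgeR) for the 37 tested enzyme genes, ordered along the pathway from top to bottom. Points are estimates and lines are 95% intervals, which for Hk3 run past the axis. Most points lie between -0.60 and 0.50, and Idh2 lies farthest to the left at -0.94.

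The 4 genes with an unadjusted p under 0.05 were Pfkl, Tpi1, Idh2 and Idh3g, and each has a single RefSeq start. Windows before these starts are shown because these genes had the lowest p-values of the set. Another reason is that hypoxia-inducible factors, which switch on many glycolytic genes, bind elements with the core ACGTG or GCGTG. Each window is the 250 bases before the start from RefSeq on GRCm38.p6, 5′ to 3′ on the gene's strand, with matches of either core on either strand in capitals. GENCODE vM21 on mm10 places the upstream ends of these genes at 78010083 (Pfkl), 124814296 (Tpi1), 80115392 (Idh2) and 73786897 (Idh3g). By those coordinates the whole Pfkl window and part of the Tpi1 and Idh2 windows lie inside the gene. Only the Idh3g window lies outside it.
Pfkl, chr10:78009808-78010057, minus strand: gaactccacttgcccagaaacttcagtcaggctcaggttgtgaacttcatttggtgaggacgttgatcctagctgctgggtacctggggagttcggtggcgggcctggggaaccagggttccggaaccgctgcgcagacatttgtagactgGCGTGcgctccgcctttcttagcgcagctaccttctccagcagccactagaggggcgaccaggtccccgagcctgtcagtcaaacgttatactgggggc
Tpi1, chr6:124814159-124814408, minus strand: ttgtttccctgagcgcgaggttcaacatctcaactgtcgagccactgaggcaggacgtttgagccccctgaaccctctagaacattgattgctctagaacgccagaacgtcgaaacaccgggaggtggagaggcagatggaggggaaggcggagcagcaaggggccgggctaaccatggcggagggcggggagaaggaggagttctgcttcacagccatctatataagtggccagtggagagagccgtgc
Idh2, chr7:80115351-80115600, minus strand: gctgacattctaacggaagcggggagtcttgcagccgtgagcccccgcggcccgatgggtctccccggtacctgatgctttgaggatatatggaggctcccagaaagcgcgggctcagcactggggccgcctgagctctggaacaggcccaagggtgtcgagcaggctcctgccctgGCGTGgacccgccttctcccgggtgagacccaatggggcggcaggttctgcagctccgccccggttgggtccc
Idh3g, chrX:73786898-73787147, minus strand: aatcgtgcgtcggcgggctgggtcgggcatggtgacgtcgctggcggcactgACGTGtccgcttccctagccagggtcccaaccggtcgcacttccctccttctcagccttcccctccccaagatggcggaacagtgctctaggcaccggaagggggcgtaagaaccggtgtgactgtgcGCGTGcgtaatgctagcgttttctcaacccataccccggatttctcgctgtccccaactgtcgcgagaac
Pfkl and Idh2 held 1 match each, Idh3g held 2 and Tpi1 held 0. RefSeq windows were found for 39 of the 40 listed genes, all but Idh3a. Over the 58 windows of these 39 genes 69.0% held a match, against 56.7% of the 10979 windows of tested genes and 38.6% of all 32851 windows. The E-box CACGTG, a site bound by MYC, was in 10.3% of the windows of the set and in 8.53% of those of tested genes. CACGTG contains ACGTG, so the motifs overlap. Mean GC content was 58.8% and 59.8% in these windows. A match describes letters in a window and not binding.

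Hexokinases, which trap glucose in the cell by phosphorylation and so open glycolysis, did not separate the groups. Hk1, the housekeeping form, was read at 51.2, 57.9 and 63.1 CPM in KO, against 62.2, 35.8 and 43.3 CPM in WT (log2 fold change 0.29, SE 0.24). Hk2, the inducible form of proliferating and hypoxic cells, was read at 25.6, 21.7 and 30.3 CPM in KO, against 27.8, 14.3 and 13.7 CPM in WT (log2 fold change 0.48, SE 0.31). For both genes WT 1 was as high as KO and WT 2 and WT 3 were lower. Neither passed (edgeR adjusted p = 0.662 and 0.545).

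Hk3, a form found mainly in myeloid cells, was read at 1.29, 1.13 and 15.3 CPM in KO, against 2.36, 8.41 and 21.5 CPM in WT. Both groups held libraries near 2 CPM or lower and libraries above 15 CPM, so the groups overlapped (log2 fold change -0.85, 95% interval -4.37 to 2.67). The estimate depended on single libraries, at -3.16 without KO 3 and 0.11 without WT 3. As a share of the library total Hk3 had 1.38, 1.12 and 16.3 CPM in KO and 2.38, 7.78 and 20.3 CPM in WT. The summed macrophage and dendritic cell markers were likewise lowest in KO 1, KO 2 and WT 1 and highest in KO 3 and WT 3, and their part in the Hk3 values was not tested. Of the 15 markers 12 were lower in each of KO 1, KO 2 and WT 1 than in KO 3 and WT 3, and Lyz2, Itgam and Itgax were not. Hk1 and Hk2 did not have that order.

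**Figure D2:**
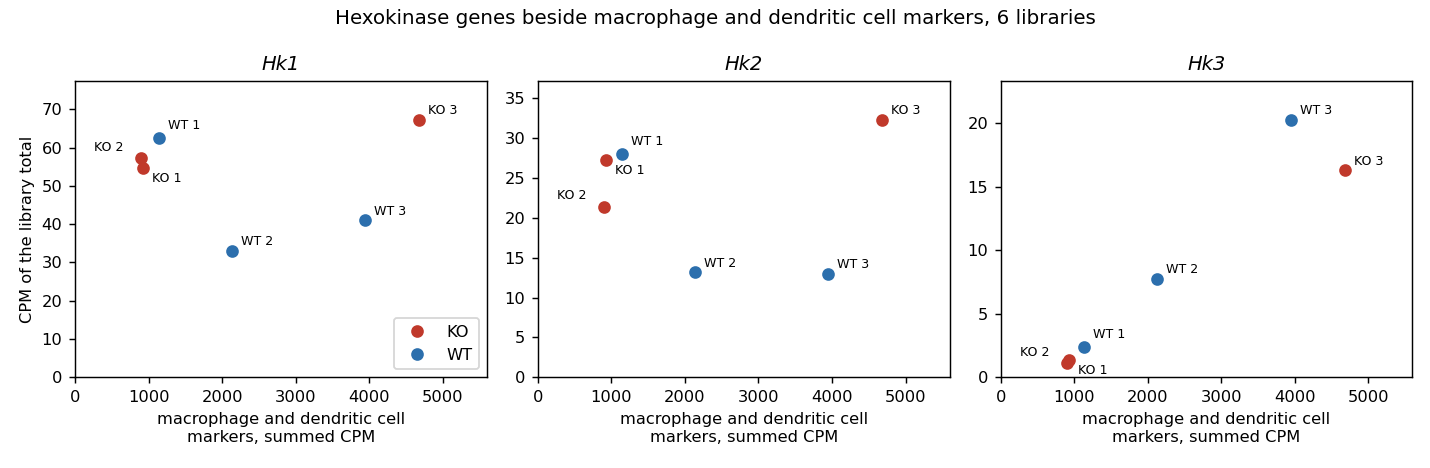
CPM of the library total for Hk1, Hk2 and Hk3 (y axes) against the summed CPM of 15 macrophage and dendritic cell markers (x axes), 1 point per library, KO in red and WT in blue. Hk3 is at most 2.38 CPM in KO 1, KO 2 and WT 1 and 16.3 and 20.3 CPM in KO 3 and WT 3, which hold the most marker counts.

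In upper glycolysis 6 of 7 genes had a log2 fold change below 0, none of which passed over all genes. Tpi1, which interconverts the triose phosphates, was read at 340.2, 426 and 312 CPM in KO, against 457, 526 and 625 CPM in WT. The highest KO library lay below the lowest WT library (log2 fold change -0.58, SE 0.21, adjusted p = 0.306 by edgeR). Pfkl, the liver-type subunit of phosphofructokinase, the committed step of glycolysis, was read at 61.4, 63.9 and 53.9 CPM in KO, against 91.7, 67.6 and 103 CPM in WT. These groups did not overlap either, with WT 2 close to KO (log2 fold change -0.55, SE 0.21, adjusted p = 0.331 by edgeR). Pfkp, the platelet-type subunit, was read at 201, 238 and 207 CPM in KO, against 218, 169 and 209 CPM in WT, and Pfkm, the muscle-type subunit, at 5.28 to 7.88 CPM in the 6 libraries. Both overlapped between the groups. Pfkp was the most abundant subunit per length, at 52.0 CPM per kilobase of transcript in KO and 47.9 in WT, followed by Pfkl at 16.0 and 23.4 and by Pfkm at 2.07 and 2.21.

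Gpi1, the glucose phosphate isomerase gene, was read at 480.4, 634 and 508 CPM in KO, against 719, 555 and 791 CPM in WT, with WT 2 inside the KO range (log2 fold change -0.35, SE 0.22). Aldoa, the main aldolase, was read at 583, 644 and 506 CPM in KO, against 755, 556 and 780.2 CPM in WT, with WT 2 again inside the KO range. Aldoc, the brain-type aldolase, was read at 7.37, 16.2 and 12.6 CPM in KO, against 11, 14.5 and 23.7 CPM in WT. Neither aldolase passed, at log2 fold changes of -0.27 (SE 0.21) and -0.44 (SE 0.37).

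In lower glycolysis and lactate formation 4 of 5 tested genes had a log2 fold change below 0 and 0 passed. Ldha, the muscle-type lactate dehydrogenase subunit, was read at 794, 939 and 710.5 CPM in KO, against 969.9, 1061 and 1233 CPM in WT. The groups did not overlap, and KO 2 was the KO library nearest to WT (log2 fold change -0.42, SE 0.21, adjusted p = 0.435 by edgeR). Gapdh, the glyceraldehyde phosphate dehydrogenase gene that many assays use as a loading control, was read at 672, 787 and 617 CPM in KO, against 922, 748 and 1009 CPM in WT (log2 fold change -0.37, SE 0.21). Pkm, the pyruvate kinase gene, was read at 949.9, 1154 and 938 CPM in KO, against 1214, 1014 and 1464 CPM in WT (log2 fold change -0.28, SE 0.21). In both, WT 2 lay inside the KO range. Pgam1, the phosphoglycerate mutase gene, had 47.0, 49.1 and 46.3 CPM in KO and 54.4, 50 and 51.7 CPM in WT. Its groups did not overlap although the difference was small (log2 fold change -0.13, SE 0.19, adjusted p = 0.828 by edgeR). Pgk1, the phosphoglycerate kinase gene, overlapped fully, at 134 to 179 CPM in KO and 139 to 156 CPM in WT (log2 fold change 0.03).

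The enolase genes of the set could not be read from these counts. Eno3, an enolase gene outside the set, was tested, with 90, 44 and 50 counts in KO and 23, 26 and 24 in WT. Its groups overlapped (log2 fold change -0.45, SE 0.43, adjusted p = 0.709 by edgeR). Eno1 (mm10 chromosome 4, 150236721 to 150248879, plus strand) had 1 count in KO 2 and 0 in the other libraries, and its near copy Eno1b had at most 2 counts. Of the 50-base windows of the longest Eno1 transcript 72.2% also occur in a transcript of another gene, most often Eno1b. Eno2, the neuronal enolase gene, had 2, 1 and 3 counts in KO and 0, 0 and 1 in WT. Where no read was counted, as many as 3 are still possible by counting error alone, which is 0.212 to 0.228 CPM in KO and 0.586 to 0.935 CPM in WT. The share of windows found in another gene's transcript was 82.5% for Gapdh, 68.0% for Pgk1, 41.5% for Pgam1 and 34.4% for Pkm. It was lower for others, at 30.3% for Pdhb, 25.3% for Gpi1, 21.8% for Suclg2 and 17.1% for Pfkp. Pdha1, Ldha, Aldoa and Tpi1 had 16.9%, 16.6%, 13.5% and 7.51%. How reads with several matches were treated is not given in the sources used here, so the levels of these genes are uncertain.

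**Figure D3:**
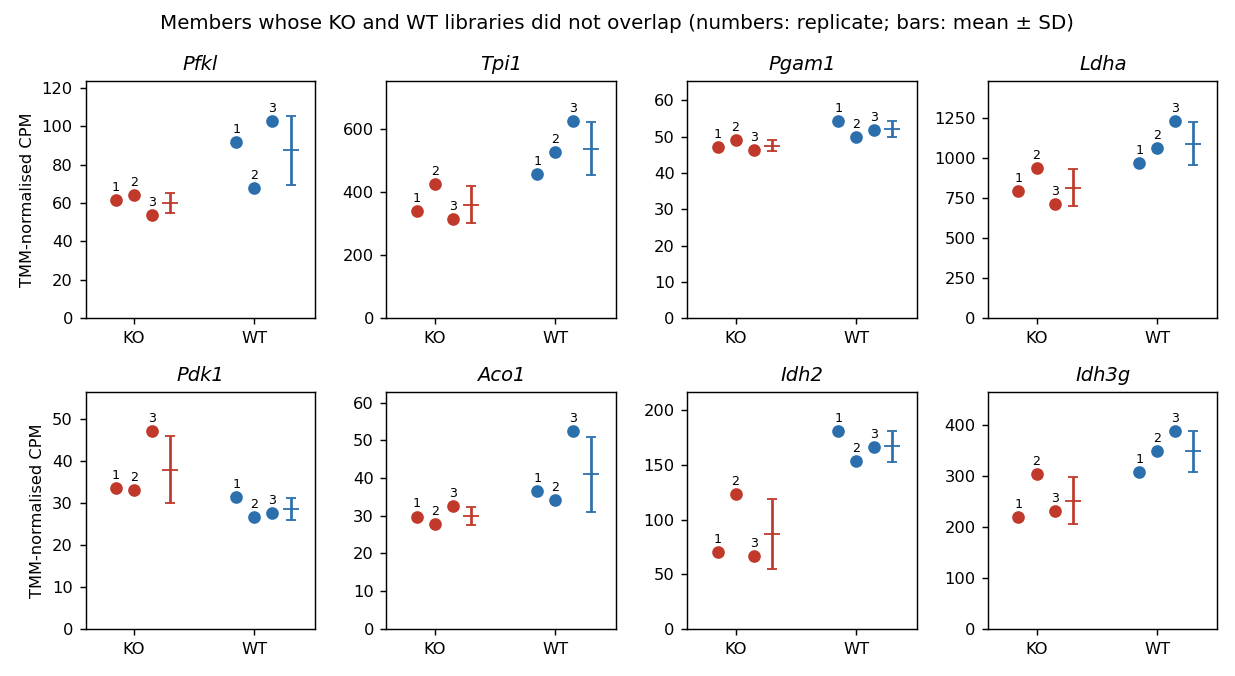
TMM-normalised CPM (y axes, from 0) in KO libraries (red, left) and WT libraries (blue, right) for the 8 genes whose groups did not overlap. Numbers give the replicate and bars the mean ± SD (n = 3 each). Idh2 is between 67.0 and 123 CPM in KO and between 153 and 181 CPM in WT, and Pdk1 is the gene that is higher in KO.

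Of the 7 pyruvate dehydrogenase and carboxylase genes 5 had a log2 fold change above 0 and 0 passed. The 5 were the subunit genes Pdha1, Dlat and Dld and the inhibitory kinases Pdk1 and Pdk3, while Pdhb and Pcx lay below 0. Pdk1, a kinase that switches the pyruvate dehydrogenase complex off and a known hypoxia target, was read at 33.6, 33.1 and 47.1 CPM in KO, against 31.5, 26.6 and 27.7 CPM in WT. The groups did not overlap, although KO 1 and KO 2 lay close to WT 1 (log2 fold change 0.41, SE 0.23, adjusted p = 0.483 by edgeR). Pdk3, another kinase of the complex, was read at 92.0, 113 and 115 CPM in KO, against 100.1, 102 and 91.6 CPM in WT (log2 fold change 0.12, SE 0.19). Of the catalytic subunits, Pdhb (E1 beta) was read at 94.7, 109 and 93.7 CPM in KO, against 108, 137 and 119 CPM in WT (log2 fold change -0.29, SE 0.20). Dlat (E2) was read at 44.3, 37.3 and 43.4 CPM in KO, against 41.5, 30.3 and 32.4 CPM in WT (log2 fold change 0.26, SE 0.22). Dld (E3), which is shared with the oxoglutarate dehydrogenase complex, had 118, 105 and 103 CPM in KO and 64.1, 151 and 71.1 CPM in WT. Its KO values lay above WT 1 and WT 3 and below WT 2. Pdha1 (E1 alpha) and Pcx, the pyruvate carboxylase gene, had log2 fold changes of 0.18 and -0.27.

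In the TCA cycle 12 of 15 genes had a log2 fold change below 0, with a median of -0.16, and 0 passed by edgeR. Idh2 encodes the mitochondrial isocitrate dehydrogenase that makes NADPH, and lies on mm10 chromosome 7, 80094846 to 80115392, on the minus strand. It was read at 69.9, 123 and 67.0 CPM in KO, against 181, 153 and 166 CPM in WT, or 86.7 ± 31.7 CPM in KO and 167 ± 13.7 CPM in WT (SD, n = 3 each). Every KO library lay below every WT library, and KO 2 was the nearest to WT. The log2 fold change was -0.94 (95% interval -1.50 to -0.38) at an adjusted p of 0.218 by edgeR, 0.341 by limma-voom and 0.0326 by DESeq2, and over 16 alternatives the adjusted p ran from 0.0326 to 0.903 and passed in 1. The log2 fold change lay between -1.28 and -0.80 in the fits that left out 1 library, and was -0.68 after correction for the length and GC content of transcripts. None of its 50-base windows occurs in a transcript of another gene.

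The cytosolic counterpart Idh1 was read at 14.4, 26.9 and 35.8 CPM in KO, against 17.1, 33.2 and 23.1 CPM in WT, with full overlap (log2 fold change 0.07, SE 0.36). Of the NAD-dependent isocitrate dehydrogenase, which drives the cycle itself, the gamma subunit Idh3g was read at 219.9, 304.5 and 232 CPM in KO, against 309, 350.5 and 388 CPM in WT. The groups did not overlap, with KO 2 close to WT 1 (log2 fold change -0.47, SE 0.21, adjusted p = 0.38 by edgeR). The catalytic alpha subunit Idh3a (log2 fold change -0.01, SE 0.22) and the beta subunit Idh3b (-0.16, SE 0.20) overlapped between the groups. Aco1, the cytosolic aconitase that doubles as an iron sensor, was read at 29.8, 27.8 and 32.5 CPM in KO, against 36.5, 34.2 and 52.4 CPM in WT (log2 fold change -0.44, SE 0.23). Cs, the citrate synthase gene, had 515 ± 71.2 CPM in KO and 510.0 ± 62.3 CPM in WT (SD, n = 3 each).

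From oxoglutarate to oxaloacetate 7 of 8 genes had a log2 fold change below 0, and no group pair was separate. Fh1, the fumarase gene, was read at 207, 293 and 215 CPM in KO, against 269, 408 and 283 CPM in WT (log2 fold change -0.43, SE 0.23, adjusted p = 0.47 by edgeR). Ogdh, the E1 subunit of oxoglutarate dehydrogenase, was read at 289.5, 327 and 368 CPM in KO, against 411, 321 and 388 CPM in WT (log2 fold change -0.19, SE 0.20). Sucla2, the ATP-forming subunit of succinyl-CoA ligase, was read at 70.0, 72.8 and 55.1 CPM in KO, against 46.5, 101 and 44.3 CPM in WT. WT 2 stood above all other libraries for Sucla2, as it did for Dld, Idh3a and Fh1. Suclg2, the GTP-forming subunit, was read at 76.9, 54.4 and 51.6 CPM in KO, against 66.2, 79.9 and 65.5 CPM in WT. The malate dehydrogenase genes did not separate the groups, with 507, 649 and 546 CPM in KO and 561, 642 and 503 CPM in WT for cytosolic Mdh1, and 319, 373 and 286 CPM in KO and 434, 287 and 379 CPM in WT for mitochondrial Mdh2. Dlst and Suclg1 had log2 fold changes of -0.04 and -0.13.

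Isoenzyme genes were compared as shares of their family's counts within 1 library, which no scaling factor changes. Of 9 planned shares 7 could be computed, those of Ldhb and Eno2 not. Pfkp made up 74.8%, 77.4% and 77.6% of phosphofructokinase counts in KO and 68.7%, 69.9% and 65.8% in WT. It is the 1 share whose groups did not overlap, with a difference of 8.51 percentage points (two-sided exact permutation p = 0.1, the smallest that 3 against 3 allows, and 0.42 adjusted over 7 shares). Of the 50-base windows of Pfkp 17.1% also occur in a transcript of another gene. The difference in the Pfkp share was 7.33 to 9.41 points when 1 library was left out. No share was recomputed with the length and GC trend removed, which can change a share. In that setting the log2 fold changes of Pfkl and Pfkp were -0.35 and -0.01, against -0.55 and 0.12 in the main fit. Idh1 made up 17%, 17.9% and 34.8% of Idh1 and Idh2 counts in KO and 8.63%, 17.8% and 12.2% in WT (exact permutation p = 0.2). Hk2 made up 32.8%, 26.8% and 27.9% of hexokinase counts in KO and 30.1%, 24.4% and 17.5% in WT. The shares of Pdk3, Sucla2, Aldoc and Mdh1 overlapped as well, with exact permutation p from 0.3 to 0.6 and adjusted p up to 0.6.

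**Figure D4:**
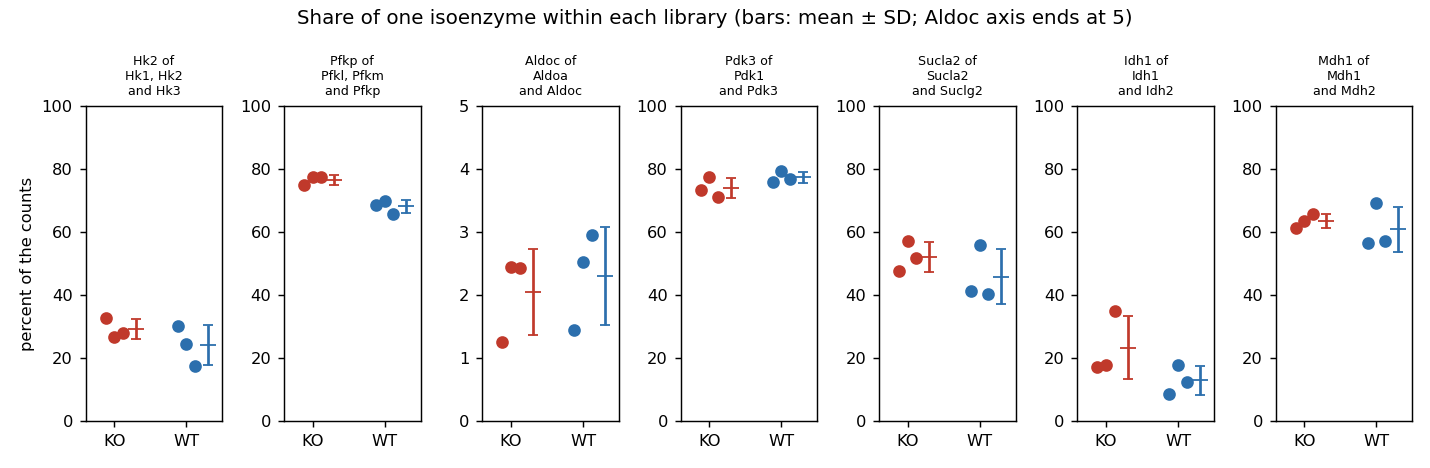
Percent of counts (y axes, from 0) that the named isoenzyme gene takes of its family in each library, KO in red on the left and WT in blue on the right, with mean ± SD (n = 3 each). The Pfkp share is the panel without overlap, at 76.6 ± 1.55% in KO and 68.1 ± 2.13% in WT.

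Of the genes around these enzymes none passed either. Among 9 genes of glucose, lactate and pyruvate transport 0 passed, and Slc2a3, a high-affinity glucose transporter, was read at 26.1, 28.5 and 34.7 CPM in KO, against 19.2, 10.6 and 12.8 CPM in WT. Its groups did not overlap (log2 fold change 1.07, SE 0.28, adjusted p = 0.203 by edgeR). For Bsg, the chaperone of lactate transporters, the log2 fold change was -0.43 (SE 0.19), without overlap, and for the lactate transporter Slc16a1 it was 0.40 (SE 0.23), with overlap. For Slc2a1, the main glucose transporter of many cells, it was 0.11. Among 9 tested of 16 other glycolysis genes 0 passed. Pfkfb3, which makes the activator of phosphofructokinase, was read at 52.5, 45.9 and 52.6 CPM in KO, against 32.6, 33.8 and 33.4 CPM in WT, without overlap (log2 fold change 0.60, SE 0.20, adjusted p = 0.284 by edgeR). Its relatives Pfkfb2 and Pfkfb4 stood at 0.83 (SE 0.41) and -0.70 (SE 0.40) on the log2 scale.

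Among 12 tested of 15 other TCA cycle and anaplerosis genes 0 passed. Sdhb, the iron-sulphur subunit of succinate dehydrogenase, was read at 240.3, 375 and 232 CPM in KO, against 384, 478 and 577 CPM in WT (log2 fold change -0.76, SE 0.25, adjusted p = 0.284 by edgeR). Its groups did not overlap, with KO 2 just below WT 1. Pck2, the mitochondrial phosphoenolpyruvate carboxykinase gene, and Sdhc, another subunit, stood at -0.60 (SE 0.24) and -0.29 (SE 0.20) on the log2 scale. Of 4 tested pyruvate dehydrogenase genes outside the set, of 12 tested hypoxia response genes and of 10 tested genes of MYC and nutrient sensing, 0 passed. Among the hypoxia genes the median log2 fold change was 0.16, against 0.01 over all genes tested, and 10 of 12 lay above 0. The share below 0 was 16.7%, against 48.7% of all genes tested, and this difference was not tested. Their SE ran from 0.25 to 0.85, and Mxi1, Bnip3 and Ndrg1 had 0.74 (SE 0.38), -0.88 (SE 0.50) and 0.58 (SE 0.36). Myc was read at 93.0, 28.5 and 43.7 CPM in KO, against 60.7, 26.0 and 30.2 CPM in WT, with overlap. Ppargc1b and Esrra, which act in mitochondrial biogenesis, stood at 0.68 (SE 0.53) and -0.22 (SE 0.22). Pdpr, Pdhx and Pdp2, all of the pyruvate dehydrogenase complex or its phosphatase, had 0.36 (SE 0.28), -0.22 (SE 0.22) and 0.14 (SE 0.34).

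The order of the WT libraries was counted gene by gene. Of 15 tested glycolysis genes WT 2 was the lowest WT library for 10 and the highest for 0, against 35.5% and 38.6% of all genes tested. WT 3 was the highest for 10 of the 15 and the lowest for 1, against 25.8% and 29.1% of all genes. WT 1 was the highest for 5 and the lowest for 4, against 35.6% and 35.4% of all genes. Of 15 TCA cycle genes WT 2 was the lowest for 6 and the highest for 7, and the difference between these counts was not tested. The glycolysis genes did not share 1 order, since Hk1 and Hk2 were highest in WT 1 while Tpi1 and Ldha were lowest there. As a share of the library total the 17 glycolysis genes summed to 4659, 5159 and 4436 CPM in KO and to 5694, 4597 and 6180 CPM in WT, so WT 2 lay within the KO range. The 15 TCA cycle genes summed to 3005, 3426 and 3159.9 CPM in KO and to 3518, 3245 and 3249 CPM in WT, with overlap. Averaged per gene on the log2 scale and set to 0 at the WT mean, upper glycolysis lay at -0.41, -0.11 and -0.38 in KO and at 0.01, -0.22 and 0.21 in WT. The pyruvate dehydrogenase and carboxylase genes lay at 0.09, 0.10 and 0.12 in KO and at -0.05, 0.09 and -0.04 in WT. Their means pool subunits with the inhibitory kinases Pdk1 and Pdk3.

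**Figure D5:**
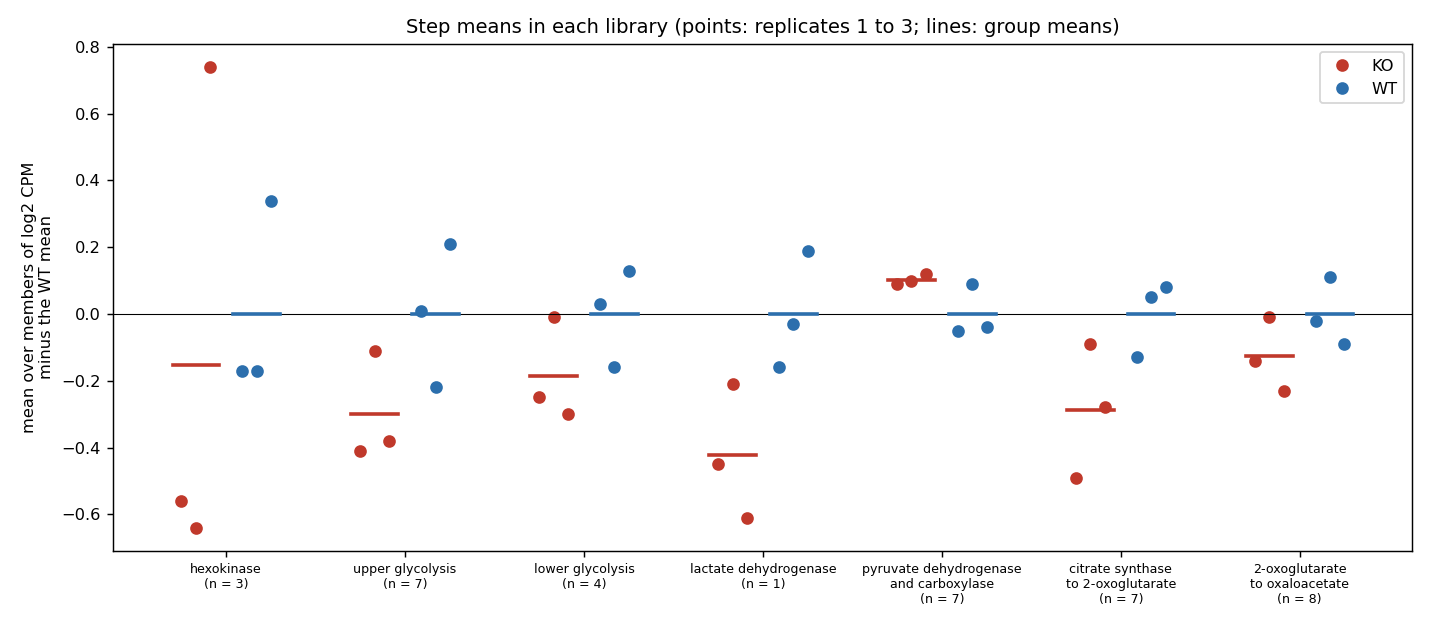
Mean over the tested genes of each step of log2 CPM minus the WT mean (y axis), 1 point per library in replicate order, KO in red left of WT in blue, with lines at group means. In upper glycolysis KO lies at -0.41 to -0.11 and WT at -0.22 to 0.21, and the hexokinase points spread widest, from -0.64 to 0.74 in KO.

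The fold changes moved with transcript length and GC content over the whole table. Across 10747 tested genes with a matched transcript, Spearman's rho of the log2 fold change was 0.39 with length and -0.40 with GC content, and across the 37 enzyme genes it was 0.35 and -0.55. Genes of a set share libraries and are not independent, so no p is given. The 37 genes had a median transcript length of 2580.0 bases and a median GC content of 51.9%, against 3074 bases and 49.9% over all genes. With a trend on both removed from each library, the median log2 fold change of the set was -0.01, that of the glycolysis genes -0.01 and that of the TCA cycle genes -0.08, against 0.02 for all genes. Without that correction the glycolysis genes had a median of -0.28. After removal 7 genes were lower in every KO library, of which Ldha, Aco1, Idh2 and Idh3g were lower before as well, and 1 was higher, Hk1. These are 18.9% and 2.70% of the set, against 8.56% and 11.1% of all genes in the same setting.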

How the data were processed

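RNA of sorted germinal centre B cells was measured in 3 KO and 3 WT mice, with groups and replicate numbers from the titles. The deposited table holds whole-number read counts for each gene symbol, not normalised. The submitters' processing notes name mm10, featureCounts 1.5.2, STAR 2.5.2 and CASAVA, while annotation, strand setting and the handling of multiply matching reads are not stated there. The tests of KO against WT used edgeR 4.0.16 under R 4.3.3 (filterByExpr, TMM, robust quasi-likelihood fit, no covariates, two-sided, Benjamini-Hochberg over 10926 genes, threshold 0.05), and standard errors follow from the F statistic. The alternatives were other scalings and filters, DESeq2 1.42.0, limma-voom 3.58.1, a replicate block, thinning to the smallest library, a length and GC trend and leaving out each library. Fits were first tested on simulated data. Lengths, coordinates and shared 50-base windows came from GENCODE vM21 on mm10, which matched 98.4% of tested genes. The genes and lists were chosen with earlier results of these data known. Genes named with values were the up to 3 with the smallest p in each pathway step and each related list, those in isoenzyme shares and Kdm1a. Slc2a1, Eno3, the markers given with values and the remaining members were added after their values were seen. The p-values of the fits set the group difference against the spread between these mice, which is moderated over all genes. Those of the shares come from permuting the libraries. Detection floors cover counting error alone, as molecular identifiers are not mentioned.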

Additional observations from a re-analysis of the deposited data

How the results depend on the processing

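The count of enzyme genes that passed was 0 in all fits except DESeq2, where it was 1 (Idh2, log2 fold change -0.98, adjusted p = 0.0326). The median log2 fold change of the set was -0.16, from -0.19 to -0.12 without single libraries, -0.05 with library size alone, where the median of all genes stood at 0.13, and -0.01 with the length and GC trend removed, and the cause of the difference between tools was not tested. Genes called over the whole table numbered 9, and 18 with library size alone, 93 with no filter, 122 by DESeq2, 2 by limma-voom, 23 with the length and GC trend removed and 1 to 24 without single libraries. With the replicate block 21 genes were called and 0 of the set. The labels do not say whether the numbers pair the mice. Same-numbered libraries had correlations of deviations of 0.341, -0.0525 and 0.443. KO 1 and KO 2 each correlated best with WT 1, and KO 3 with WT 3. Such correlations cannot show whether the mice are paired, because the deviations are taken from the mean of only 3 libraries per group. Kdm1a had -0.88 to -1.93 without single libraries, and passed only without KO 1. The count of 7 genes lower in every KO library, examined after the data were seen, was 7 to 14 without single libraries, where 9.34% to 19.1% of all genes were lower in this way, and 5 with library size alone, where 4.32% were.

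The log2 fold change of 17 of the 37 genes changed sign in at least 1 alternative. Mdh1 had 0.02 with upper-quartile scaling, 0.11 with library size alone, 0.00 with no filter, 0.01 with the stricter filter (at least 5 CPM in 3 libraries) and 0.01 after thinning. Pfkm had 0.02 with library size alone and 0.11 after thinning, and Idh1 had -0.01 by limma-voom. With the length and GC trend removed, Pfkm had 0.09, Pfkp -0.01, Aldoa 0.09, Pgam1 0.05, Pkm 0.02, Idh1 -0.01, Sucla2 -0.01 and Mdh2 0.16. Without single libraries the ranges of 11 genes crossed 0, at -0.21 to 0.07 for Pfkm, -0.26 to 0.36 for Idh1, -0.17 to 0.54 for Sucla2, -0.11 to 0.09 for Mdh1, -3.16 to 0.11 for Hk3, -0.04 to 0.69 for Dld, -0.42 to 0.02 for Pcx, -0.19 to 0.21 for Idh3a, -0.11 to 0.09 for Pgk1, -0.08 to 0.11 for Cs and -0.11 to 0.05 for Dlst. Differences of shares, in percentage points without single libraries, ran from 1.90 to 8.23 for Hk2, 4.60 to 13.5 for Idh1, 0.428 to 6.79 for Mdh1, 3.61 to 11.4 for Sucla2, -5.27 to -2.13 for Pdk3 and -0.699 to 0.131 for Aldoc. WT depth limits what low genes such as Hk3, Pfkm and Eno2 can show.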
